A study of Mus musculus with 36 samples.

Results

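Mouse pancreatic fibroblasts of the C57BL/6 strain were profiled by RNA sequencing after 48 h of co-culture with tumour clone V or with tumour clone M. The comparison rests on the 4 libraries of each co-culture, 8 of the 36 libraries of the series, taken by the clone named in their labels. The other libraries, also 4 per group, came from fibroblasts in mono-culture, from co-cultures with clones E, H, K, N and T, and from cells grown beside KPC1, which is left unexplained in the labels. Tumour cells carried GFP and were removed by flow sorting before RNA was taken from the fibroblasts, and whether mono-cultures also passed the sorter is not stated. The labels name the clones by letter alone, give no genotype for clone or fibroblast beyond the strain, and do not say whether the 4 libraries of a group came from separate cultures. Errors and p-values therefore measure the spread between libraries, which may be technical.

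Clones V and M were singled out because their fibroblasts stood furthest apart among the 21 pairs of the 7 clones. By the quasi-likelihood test of edgeR, with an adjusted p-value under 0.05 as the limit, 8367 of 14439 genes tested (57.9%) passed for this pair, 4081 higher with V (28.3%) and 4286 lower (29.7%). The pairs just outside the choice were K and V, with 7918 genes, and H and M, with 7372. At the other end of the range, H and V gave 56 genes, E and N 183 and K and M 323. The root mean square log2 fold change was 1.02 for V and M and 0.97 for K and V. Since the pair was chosen by these values, differences between V and M are given below as a description, with their standard errors and without a test, and nothing is read from the share of genes that passed. The counts of list members higher or lower with V are counts past that same threshold, stand beside the 28.3% and 29.7% over all genes, and are part of the description. In 6955 genes (48.2%) the 4 V and the 4 M libraries did not overlap, 3447 with V above M (23.9%) and 3508 with V below (24.3%). Of these genes, 897 were at least 2-fold higher with V and 1609 at least 2-fold lower.

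A test on libraries of neither V nor M was available in the other clones, although the pair had been picked among all 7 clones. In a second fit of 28 libraries, without those of V and M, an F-test asked whether a gene varied among clones E, H, K, N and T, and 7999 of 14275 genes (56.0%) passed. The F-test says that a gene depended on the clone among those 5 co-cultures, not that V and M differed. Of the 8297 genes past the V and M threshold that this fit tested, 5999 passed the F-test, a larger share than of all genes. The genes were not matched for abundance or spread, which also bear on passing either test, so nothing is read from the larger share.

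Library totals were 16956085 to 21670728 counts for V and 12532122 to 17137810 for M, within the range of 12532122 to 21985538 over the series. The V libraries detected 17546 to 18027 genes and the M libraries 17783 to 17994. Mitochondrial genes took 3.01 to 4.14% of counts with V and 4.02 to 4.72% with M, and the 10 most abundant genes of a library 6.50 to 7.27% with V and 8.13 to 8.68% with M. The mono-culture libraries had totals of 12577931 to 20727926 counts and detected 17377 to 18264 genes. Their mitochondrial share was 2.16 to 4.31%, and mono-culture replicate 4, at 2.16%, had the lowest of the series.

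Fibroblast markers were high in both sets of libraries, and both held some epithelial transcripts. Levels are given in CPM, read counts scaled to the size of each library, and are compared between groups for 1 gene at a time, not between genes. Of 12 fibroblast markers 0 were at zero in all libraries of a clone, and they summed to 11093 to 21787 CPM with V, 22100 to 32435 with M and 21945 to 23747 in mono-culture. Of these markers 9 were lower and 2 higher with V past the threshold. Among the lower ones, the platelet-derived growth factor receptor Pdgfra read 40.6, 128, 88.3 and 131 CPM with V and 320, 374, 299 and 294 CPM with M. The groups did not overlap for Pdgfra, and V replicate 1 was the lowest. Fap, a surface protease of activated fibroblasts, was at 12.8 to 30 CPM with V, 56.2 to 79.7 with M and no more than 1.52 in mono-culture. In bulk RNA a lower level can mean fewer cells expressing a gene or less RNA in each cell, and these cannot be told apart here.

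The 16 epithelial markers summed to 40.3 to 240.0 CPM with V, 60.9 to 571 with M and 4.48 to 6.05 in mono-culture. Of the 11 that were tested, 5 were lower and 2 higher with V past the threshold, with a median log2 fold change of -1.08. Elf3 was lower without overlap, at 0 to 0.19 CPM with V and 0.30 to 1.15 with M, both low levels. The simple keratin Krt18 read 17.2, 14.9, 69.9 and 115 CPM with V and 64.6, 23.4, 238 and 130 with M, so the groups overlapped, and replicates 3 and 4 of both clones stood above replicates 1 and 2. Cdh1, the adhesion protein of epithelia, went the other way, with 6.36, 4.33, 21.7 and 27.8 CPM with V and 0, 0.12, 0 and 0 with M. Spint1 was also higher with V without overlap, at 3.27 to 4.76 CPM against 1.67 to 2.53 with M. Cldn4 was at 0 counts in the 8 libraries. Summed markers of 3 other cell types stayed under 13 CPM with both clones. The macrophage sums overlapped, the endothelial sum was higher with V (2.33 to 3.81 CPM, with Tie1 at 0) and the acinar sum higher with M (6.62 to 10.3 CPM against 2.29 to 4.37, with Ptf1a, Amy2a5, Cela2a and Pnlip at 0). The adipocyte sum, 92.1 to 130 and 80.6 to 103 CPM, came mostly from Lpl, a lipase that fibroblasts also express, and Cidec was at 0. A fit with the epithelial level as a covariate, chosen after seeing the data, gave 8206 genes past the threshold between V and M.

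**Figure D1:**
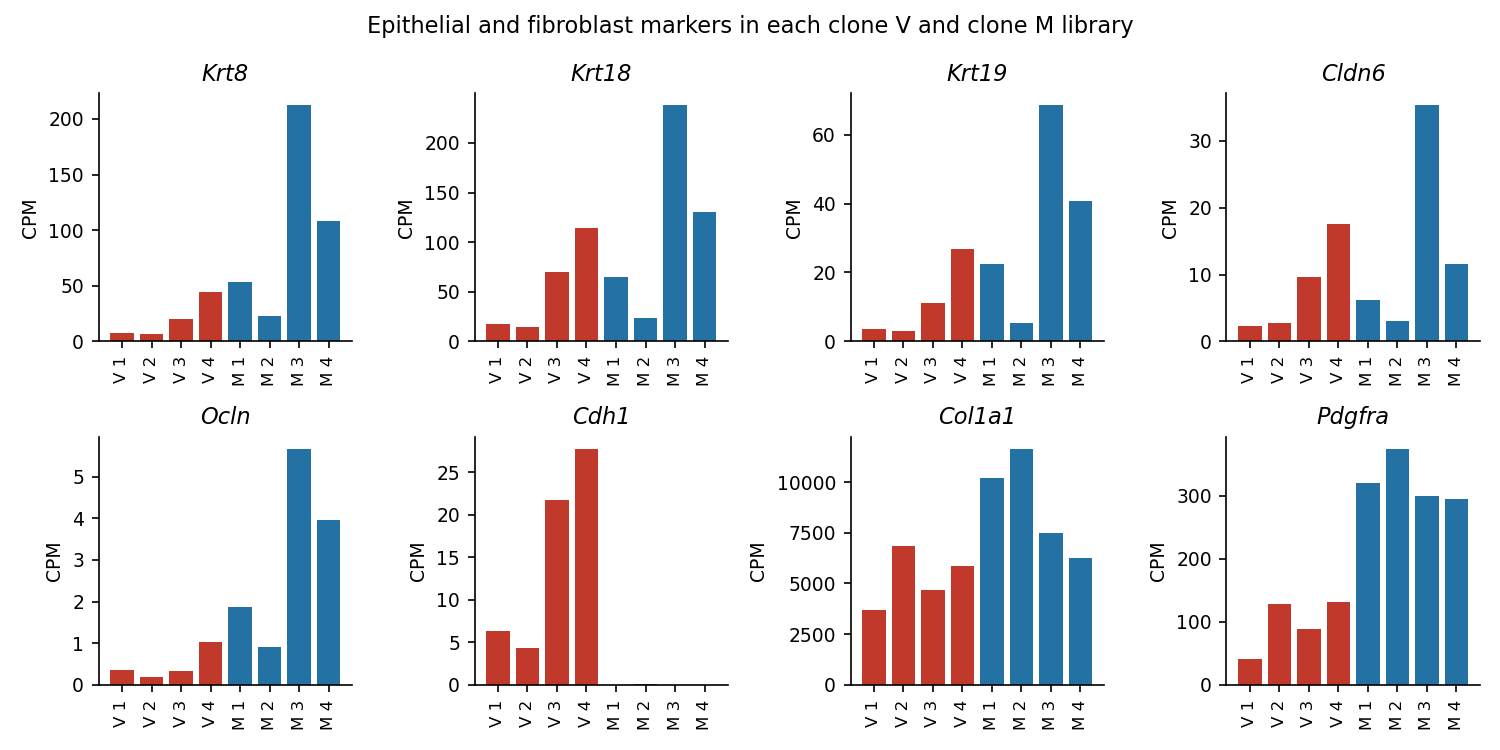
Level in CPM (vertical axes, starting at 0) of 6 epithelial and 2 fibroblast markers, with 1 bar for each of the 4 clone V libraries (red) and the 4 clone M libraries (blue). The keratins overlap between the clones and are highest in M replicate 3, Cdh1 is at most 0.12 CPM with M, and Pdgfra is lower in each V library than in each M library.

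Of the 27 gene lists described here, that of the integrated stress response (ISR) and ATF4 targets had the highest median difference between the clones, followed by amino acid enzymes and transporters. In this response, kinases that sense missing amino acids, unfolded protein, haem deficiency or double-stranded RNA phosphorylate the initiation factor eIF2, which slows translation in general and favours that of the transcription factor ATF4. ATF4 then activates genes for amino acid synthesis, amino acid uptake and tRNA charging, together with regulators such as Ddit3 (CHOP) that end or redirect the response. In fibroblasts it also serves the supply of glycine and proline for collagen.

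Of 19 ISR regulators and ATF4 targets, 18 were higher with V and 1 lower, and the median log2 fold change was 1.95, beside -0.04 over all genes tested. Atf4 itself (chr15:80255184-80257541) read 1095, 974, 1061 and 759 CPM with V and 363, 360, 405 and 309 with M. The lowest V library stood well above the highest M library, and the mono-culture libraries, at 481 to 674 CPM, lay between. The log2 fold change was 1.44 (SE 0.14), with V at 0.71 and M at -0.73 relative to mono-culture. Here and below, the V and M values relative to mono-culture share the same 4 mono-culture libraries and are given side by side only.

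Ddit3, the CHOP transcription factor, followed the same order, with 316, 352, 400 and 259 CPM with V, 73.0, 70.6, 60.7 and 58.2 with M and 125 to 140 in mono-culture. The 3 groups did not overlap, and the log2 fold change of V over M was 2.34 (SE 0.21). Atf3, a partner of ATF4 and itself an early stress gene, read 34.3, 31.4, 45.1 and 18.4 CPM with V against 2.05, 2.67, 11.1 and 4.18 with M. M replicate 3 was the highest of its group and still below the V libraries (log2 fold change 2.68, SE 0.39). Trib3, a pseudokinase that restrains ATF4, stood at 115 to 177 CPM with V and 18.1 to 32.4 with M, a log2 fold change of 2.53 (SE 0.26). Ppp1r15a (GADD34), which brings the phosphatase that reverses eIF2 phosphorylation, stood at 111 to 300 CPM with V and 33.4 to 66.7 with M. Its M libraries overlapped mono-culture (30.7 to 47.7 CPM), so the distance lay on the V side alone.

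The secreted factors of the response were among its widest differences. Gdf15, a circulating stress hormone that acts on the hindbrain, read 207, 149, 189 and 127 CPM with V and 22.5, 18.2, 20.5 and 21.9 with M, 8.08-fold apart on the fitted scale. The M libraries lay inside the mono-culture range of 15.6 to 29.1 CPM and each V library was above it. Fgf21, another stress hormone, was at 4.58, 4.43, 2.29 and 1.79 CPM with V and 0.19, 0.06, 0 and 0.07 with M. With at most 3 counts in an M library, its log2 fold change of 5.26 (SE 0.63) rests on few reads. Stc2, a secreted glycoprotein, stood at 22.3 to 59.9 CPM with V and 4.99 to 8.02 with M, where M again overlapped mono-culture.

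Chac1, which degrades glutathione, read 126, 147, 123 and 94.5 CPM with V and 17.7, 20.8, 18.2 and 10.9 with M. Mono-culture lay between at 31.8 to 47.5 CPM, and relative to it V stood at 1.53 and M at -1.32 on the log2 scale. Nupr1 (log2 fold change 1.95, SE 0.19), Ero1l, an oxidase of the endoplasmic reticulum (2.18, SE 0.21), and Eif4ebp1, an inhibitor of cap-dependent translation (1.47, SE 0.16), also did not overlap. The smallest difference in this direction was 0.54 (SE 0.17) for Ddit4, an inhibitor of mTORC1. The exception was Atf5, a relative of Atf4, with 82.5, 132, 77.6 and 70.4 CPM with V and 253, 248, 140 and 121 with M. Its groups overlapped at V replicate 2 and M replicate 4, and both clones stood below the mono-culture range of 319 to 454 CPM.

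Promoters were read for the motif TGATGNAA, the composite element to which ATF4 binds together with a C/EBP protein, in the 250 bases before each start in the RefSeq promoter table (GRCm38.p6). The motif was sought on either strand (TTNCATCA on the opposite strand). Of the 70 genes of the 4 lists of ISR and amino acid genes, 51 had a window, and 13 of these held the motif (25.5%). So did 246 of the 9989 genes tested that had a window (2.46%) and 1056 of 27025 genes with a window (3.91%). The lists include ATF4 targets by choice, which favours a higher share, so the shares are not read as a result about these cultures. The stretches of 60 bases below are those of the 4 genes of these lists with the highest V over M values among genes that hold the motif, and are shown for the sites themselves, with the motif in capitals. Each is written 5′ to 3′ on the strand of its gene, and a match is a description of letters, not of binding.
Fgf21, chr7:45615596-45615655, minus strand: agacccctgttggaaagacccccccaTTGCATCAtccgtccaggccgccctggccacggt
Chac1, chr2:119351023-119351082, plus strand: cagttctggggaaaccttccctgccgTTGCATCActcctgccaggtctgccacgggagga
Slc7a11, chr3:50443646-50443705, minus strand: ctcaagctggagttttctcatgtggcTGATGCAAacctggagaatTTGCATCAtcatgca
Atf3, chr1:191183410-191183469, minus strand: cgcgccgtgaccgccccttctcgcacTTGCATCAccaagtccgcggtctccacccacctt
The Slc7a11 stretch holds 2 matches in opposite directions, and its gene stood at 72.2 to 185 CPM with V and 12.1 to 26.4 with M. Asns, the next in that order, holds TGATGAAA 23 bases before its RefSeq start. The site lies inside the Asns span given below, which is from GENCODE and begins further upstream.

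Among enzymes that make non-essential amino acids or feed folate metabolism, 16 of 18 were higher with V and 1 lower, and the median log2 fold change was 1.72. Cth (chr3:157894248-157925077), which makes cysteine from cystathionine, read 143, 97.5, 78.2 and 56.5 CPM with V and 5.96, 8.32, 6.48 and 5.60 with M. The groups were 14.2-fold apart on the fitted scale (log2 fold change 3.83, SE 0.39), with V replicate 4 the lowest of its group. Mono-culture, at 14.1 to 23.1 CPM, lay between, with V at 2.34 and M at -1.48 relative to it on the log2 scale. Asns (chr6:7675169-7693254), asparagine synthetase, read 671, 562, 570 and 431 CPM with V and 86.9, 109, 96.3 and 88.5 with M. No library of the 3 groups overlapped, since mono-culture stood at 137 to 205 CPM, and the V over M fold was 5.87.

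The serine and glycine enzymes showed the same order of groups, with mono-culture between V and M. Phgdh, which takes the first step from glycolysis into serine, read 674, 452, 461 and 420 CPM with V and 126, 137, 130 and 127 with M. The M libraries were close to each other, and V replicate 1 was the highest of its group (log2 fold change 1.95, SE 0.15). Psat1 and Psph, the following steps, had log2 fold changes of 1.61 (SE 0.18) and 2.04 (SE 0.23). Shmt2, which makes glycine in mitochondria, read 1226, 985, 750 and 585 CPM with V and 214, 260, 215 and 209 with M. Its cytosolic counterpart Shmt1 was higher by 1.26 (SE 0.15), and the mitochondrial folate enzymes Mthfd2 and Aldh1l2 by 2.39 (SE 0.26) and 1.82 (SE 0.23).

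Among transaminases, Gpt2, the mitochondrial alanine enzyme, stood at 185 to 342 CPM with V and 47.0 to 53.8 with M, and Got1, the cytosolic aspartate enzyme, at 133 to 176 and 36.5 to 45.4. The proline enzymes Aldh18a1 and Pycr1 were higher by 1.62 (SE 0.20) and 1.19 (SE 0.23), although Pycr1 overlapped mono-culture with both clones. Glul, which makes glutamine, was at 25.2 to 47.3 CPM with V and 34.6 to 50.8 with M, overlapping. Cbs, the enzyme that supplies Cth with cystathionine, was lower with V, at 0.38 to 0.96 CPM against 0.97 to 2.23 with M, both low levels. Cth and Cbs, neighbours in the same pathway, stood on opposite sides.

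Of 13 amino acid transporters, 9 were higher with V and 1 lower, and their median was 1.52. Slc7a11, the cystine carrier, read 185, 149, 98.3 and 72.2 CPM with V and 15.6, 26.4, 17.8 and 12.1 with M, and its log2 fold change was 2.81 (SE 0.43). Its partner chain Slc3a2 read 621, 620, 627 and 417 CPM with V and 172, 195, 188 and 165 with M (1.67, SE 0.16). Slc7a5, which carries leucine on the same partner chain, stood at 344 to 644 CPM with V and 123 to 212 with M. The neutral amino acid carriers Slc1a4 and Slc1a5 were higher by 1.52 (SE 0.25) and 1.39 (SE 0.22), and Slc6a9, a glycine carrier, by 1.89 (SE 0.23). Slc38a2, at 763 to 829 CPM with V and 413 to 482 with M, differed by 0.79 (SE 0.11). The glutamate carrier Slc1a3 was lower with V, at 6.41 to 11.2 CPM against 12 to 18.7. Slc7a1, an arginine and lysine carrier, and Slc38a1, a glutamine carrier, were higher by 1.82 (SE 0.32) and 1.80 (SE 0.25). The members that did not pass, Slc7a3, Slc7a2 and Slc43a2, overlapped between V and M, with log2 fold changes of 0.59 (SE 0.31), 0.43 (SE 0.36) and -0.04 (SE 0.23).

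The cytosolic aminoacyl-tRNA synthetases, which load each amino acid on its tRNA, were higher with V in 19 of 20 cases and lower in 0, with a median of 1.32. Nars, for asparagine, read 1260, 937, 824 and 630 CPM with V and 260, 290, 248 and 242 with M (log2 fold change 1.81, SE 0.19). The M libraries stood just below the mono-culture range, which began at 324 CPM, and each V library above it. Sars, for serine, read 886, 735, 745 and 672 CPM with V and 276, 255, 282 and 279 with M (1.48, SE 0.11). Gars, for glycine, and Tars, for threonine, were higher by 1.75 (SE 0.15) and 1.77 (SE 0.21). Synthetases at the low end were Kars (0.60, SE 0.10), Hars (0.58, SE 0.09) and Dars (0.38, SE 0.11), the last with overlapping libraries. Farsa differed by 0.28 (SE 0.08) while Farsb, the other chain of the same enzyme, differed by 1.33 (SE 0.18). Qars, for glutamine, was the 1 member that did not pass, at 101 to 133 CPM with V and 104 to 126 with M.

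**Figure D2:**
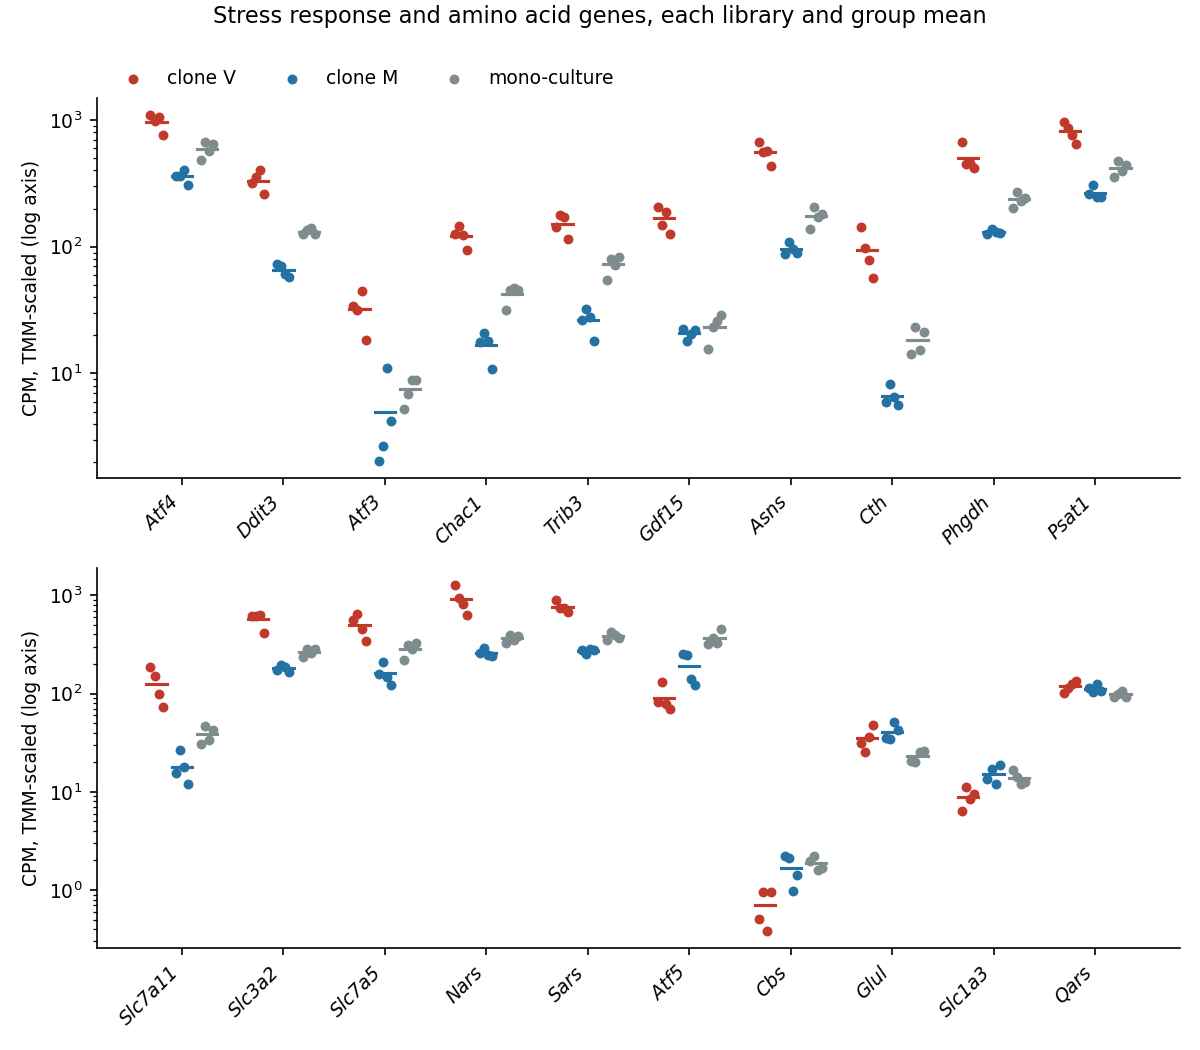
CPM on a log axis for 20 stress response and amino acid genes, with 1 point per library and a bar at the group mean, for clone V (red), clone M (blue) and mono-culture (grey), 4 libraries each. In most panels the V points lie above and the M points at or below mono-culture, and Atf5, Cbs, Glul, Slc1a3 and Qars do not follow that order.

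Counted over the 70 genes of these 4 lists, each V library stood above each mono-culture library in 61, each M library below each mono-culture library in 37, and both at once in 35. Over all genes tested these shares were 25.8%, 16.9% and 2.92%. Of the 9 groups, V had the highest mean in 49 of the 70 genes and M the lowest in 56, beside 18% and 13.9% of all genes. Leaving out any of the 8 libraries left the counts at 18 higher and 1 lower for the ISR list, 16 and 1 for the enzymes, 9 or 10 and 1 for the transporters, and 18 or 19 and 0 for the synthetases. With the epithelial level as a covariate, an alternative chosen after seeing the data, the counts were 18 and 1, 16 and 1, 9 and 1, and 19 and 0. Within the V group the 4 libraries were not alike: replicate 1 was the highest of the V libraries in 42 of the 70 genes and replicate 4 the lowest in 54. With M, replicate 2 was the highest in 40 and replicate 4 the lowest in 39. The keratins were highest in V replicate 4 and in M replicate 3, and their part in this order was not tested. Replicate 4 was also the lowest library by the mean of the ISR list in 7 of the 8 co-cultures of the series, KPC1 included, by that of the enzymes and of the synthetases in 7 and by that of the transporters in 8, so the low place of replicate 4 was shared across co-cultures. The mean log2 CPM of the ISR list was 6.57 to 7.13 over the V libraries and 4.94 to 5.12 over the M libraries.

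Most of these genes also depended on the clone among the 5 co-cultures outside the pair. The F-test of edgeR among E, H, K, N and T was passed by all 19 ISR genes, 15 of the 18 enzymes, 11 of the 13 transporters and 17 of the 20 synthetases. Together these were 62 of 70, beside 56.0% of all genes and 5999 of the 8297 genes past the V and M threshold. Clone H was highest in 48 of these 62 genes, and K or E lowest in 36 and 16. Ddit3 averaged 278 CPM with H and 71.1 with E (adjusted p = 6.08e-07), and Asns 461 CPM with H and 156 with K (adjusted p = 1.7e-05). Cth averaged 68.4 CPM with H and 13.4 with K (adjusted p = 5.81e-05), and Sars, an exception in its highest clone, 678 CPM with T and 313 with K (adjusted p = 3.38e-08). Among those that did not pass were Pycr1, Mthfd1l, Slc38a2, Slc7a3, Lars, Dars and Farsa.

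Among genes at least 2-fold apart with no overlap, V alone stood apart from mono-culture more often than M alone. Over all genes tested V was likewise apart more often, in 25.8% above and 26.4% below mono-culture, against 15.1% and 16.9% for M. Of the 897 genes with V above M, 485 (54.1%) had V apart from mono-culture and M overlapping it, 86 (9.59%) the converse, and 208 (23.2%) had the clones on opposite sides of mono-culture. Of the 1609 genes with V below M, the numbers were 869 (54%), 231 (14.4%) and 197 (12.2%). Over all genes tested, the clones lay on opposite sides of mono-culture in 2.92% with V above and 1.97% with V below. Cth, Chac1, Mamdc2, Kcnma1 and Edn1 had the largest distances on both sides with V above, and Gda, Wnt4, Cygb, Dhrs3 and Mrvi1 with V below. Edn1, the vasoconstrictor endothelin 1, read 7.53, 6.16, 10.9 and 5.27 CPM with V, 1.24, 1.28, 0.63 and 0.52 with M, and 1.60 to 3.19 in mono-culture. Cygb, a globin of fibroblasts and stellate cells, read 3.71, 10.5, 5.50 and 9.87 CPM with V, 95.6, 94.7, 93.1 and 91.5 with M, and 19.7 to 31.9 in mono-culture. Dhrs3, which reduces retinal, stood at 0.66 to 3.18 CPM with V, 26.3 to 47.0 with M and 10.6 to 13.3 in mono-culture.

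**Figure D3:**
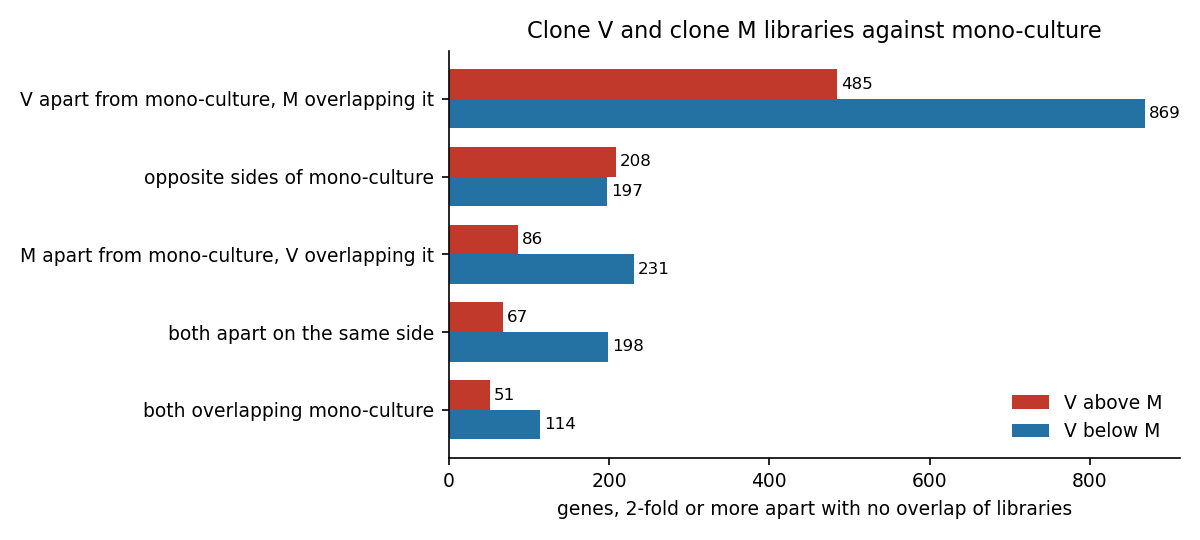
Number of genes (horizontal axis) at least 2-fold apart with no overlap of the 4 V and 4 M libraries, split by where each clone lies relative to the 4 mono-culture libraries, with V above M in red and V below M in blue. In both directions the largest class is V apart from mono-culture with M overlapping it, with 485 and 869 genes.

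Placed on the line that runs from the mean M profile (0) to the mean V profile (1) over the genes tested, mono-culture stood at 0.23 and the V libraries at 0.88 to 1.17. The other co-cultures stood at 0.13 for K, 0.31 for E, 0.32 for N, 0.54 for T, 0.79 for KPC1 and 0.80 for H. The mean of K lay closest to M, and those of H and KPC1 lay closest to V. Neighbours on this line overlapped in their libraries for K and mono-culture, mono-culture and E, E and N, KPC1 and H, and H and V. They did not overlap for M (-0.07 to 0.05) and K, N and T, or T and KPC1. The line is defined by V and M, so these positions describe the other groups and test nothing.

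**Figure D4:**
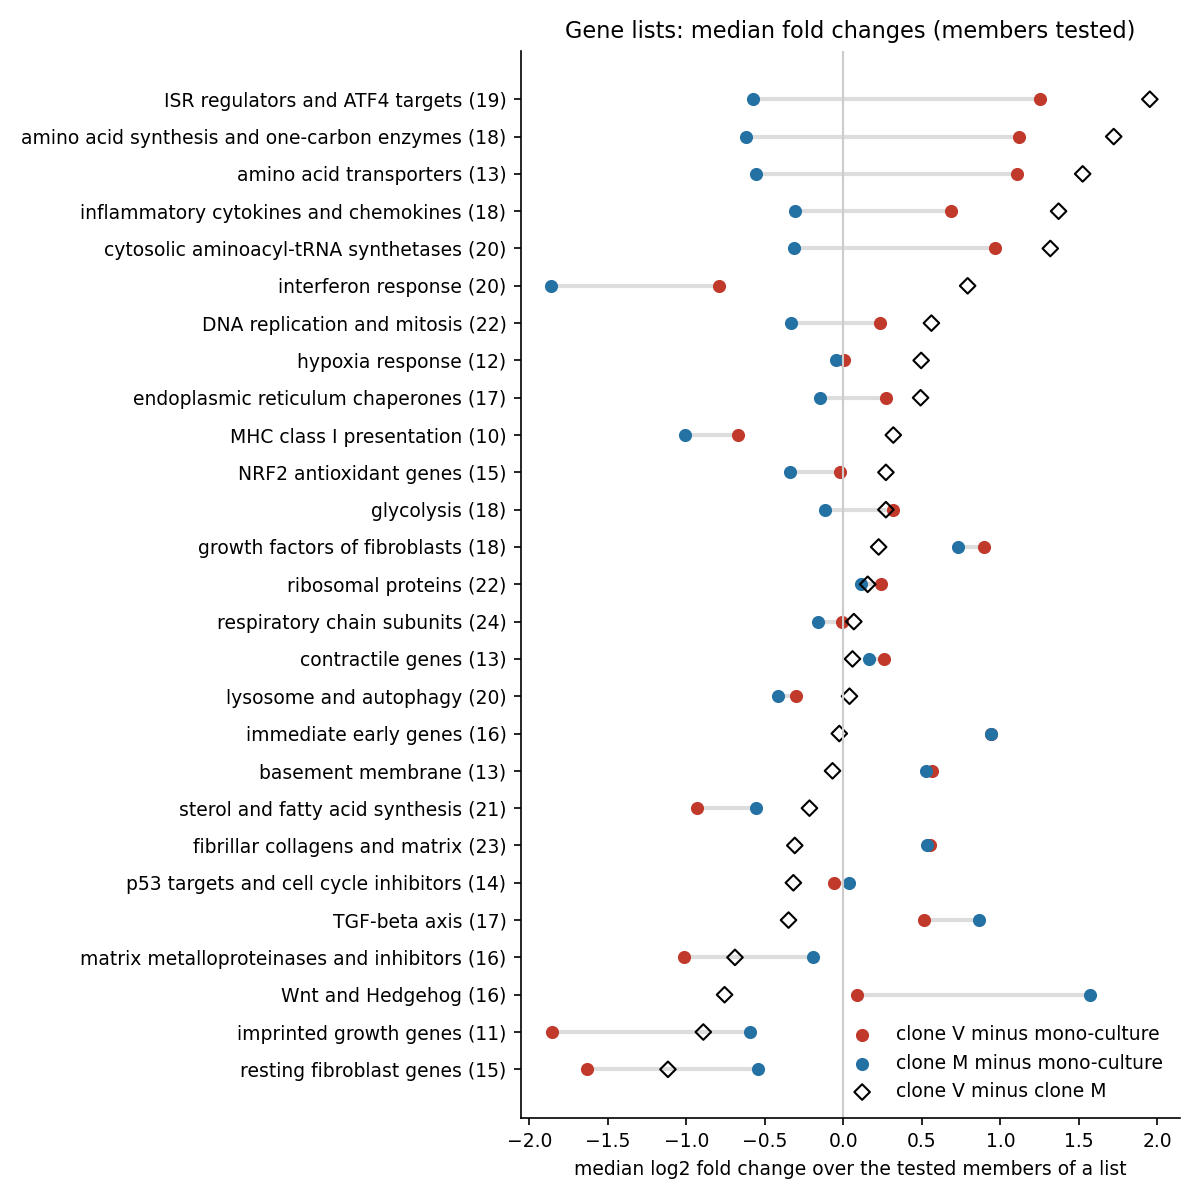
Median log2 fold change over the tested members of 27 gene lists (number of members in brackets), for V minus mono-culture (red), M minus mono-culture (blue) and V minus M (open diamonds). The 3 ISR and amino acid lists have the highest V minus M medians, 1.95, 1.72 and 1.52, and the list of resting fibroblast genes the lowest, -1.12.

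Inflammatory cytokines and chemokines were mostly higher with V: 12 of 18 tested were higher and 2 lower, with a median of 1.37. Il6 (chr5:30013114-30019981), the cytokine that marks inflammatory fibroblasts, read 11.3, 12.2, 11.9 and 7.24 CPM with V and 0.93, 0.85, 1.32 and 1.87 with M. Both groups were above the mono-culture range of 0.32 to 0.61 CPM, and they were 8.66-fold apart. Cxcl10, an interferon-induced chemokine for T cells, read 63.5, 48.6, 50.8 and 59.2 CPM with V and 4.22, 6.50, 7.79 and 8.21 with M. Mono-culture lay between, at 18.1 to 31 CPM. Csf1, the macrophage growth factor, was higher by 0.68 (SE 0.23), with V overlapping mono-culture. In the opposite direction, Cxcl5, a neutrophil chemokine, was at 0.05 to 0.55 CPM with V and 0.61 to 3.36 with M. The F-test among the other clones was passed by 13 of the 18 (56.0% of all genes), with Cxcl10 at 59.7 CPM with H and 6.65 with K (adjusted p = 9.19e-07) and Il6 highest with H and lowest with K (adjusted p = 0.00644).

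Interferon response genes stood below mono-culture, in 19 of 20 cases with no overlap for M and in 8 for V, beside 16.9% and 26.4% of all genes. The median relative to mono-culture was -0.79 for V and -1.86 for M, and 9 of 20 genes were higher with V than with M and 1 lower. Rsad2 (viperin), an antiviral enzyme, read 8.44, 9.92, 16.3 and 10.4 CPM with V, 1.30, 3.34, 2.87 and 2.01 with M, and 10.3 to 20.1 in mono-culture. The V libraries overlapped mono-culture and the M libraries did not, a pattern shared by Ifi44 (log2 fold change of V over M 2.58, SE 0.56) and by Oas1a, a sensor of double-stranded RNA (2.31, SE 0.50). Stat2, a transcription factor of the pathway, overlapped between V (68.5 to 191 CPM) and M (76.9 to 101). The count of genes higher with V was 6 without V replicate 3 or without M replicate 1, and 13 without V replicate 1. The mean log2 CPM of the list overlapped between the clones, at 3.61 to 4.89 with V and 3.12 to 3.94 with M. In mono-culture it was 4.95 to 5.97. Replicate 1 had the lowest mean with V and M, and likewise with E, H, N, T and KPC1 but not with K. The cause of this shared order was not tested. The MHC class I heavy chain H2-K1 stood at 91.5 to 131 CPM with V, 34.5 to 43.0 with M and 78.4 to 152 in mono-culture. Of the 10 presentation genes 3 were higher with V (H2-K1, H2-D1 and B2m) and 2 lower, near or under the 28.3% and 29.7% of all genes. The lower count was 1 without V replicate 1, V replicate 2 or M replicate 4, and with the epithelial covariate. The immunoproteasome subunit Psmb9 was 1.89-fold higher with M.

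Growth factors of fibroblasts had a median log2 fold change of 0.22, and single members ranged from -1.05 to 4.77. Of the 18 tested, 10 passed the threshold, beside 57.9% of all genes. Of these 7 were higher with V and 3 lower, or 5 lower without V replicate 2 or without M replicate 1. Areg, a ligand of the EGF receptor, read 14.1, 10.4, 12.8 and 8.20 CPM with V and 0.12, 0.24, 0.63 and 0.67 with M. M overlapped mono-culture, which was at 0.05 to 0.28 CPM, and V over M was 27.2-fold. Ereg, a second ligand of that receptor and a neighbour of Areg in the genome, read 78.9, 65.4, 60.8 and 39.8 CPM with V and 7.20, 7.41, 10.7 and 10.1 with M. Both groups stood above the mono-culture range of 5.12 to 6.08 CPM. Both ligands also varied among the other clones: Areg was highest with T and lowest with K (13.7 and 0.45 CPM, adjusted p = 3.01e-05), and Ereg averaged 51.9 CPM with H and 12.54 with K (adjusted p = 0.000159).

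Of 11 imprinted growth genes, 2 were higher with V, the neighbours H19 and Igf2, which share control elements. H19 (chr7:142575529-142578143), a non-coding RNA, read 152, 181, 66.4 and 111 CPM with V, 1.30, 3.83, 1.66 and 2.69 with M and 1.76 to 4.29 in mono-culture. No V library came near the others (log2 fold change 5.75, SE 0.71), and the next group, clone H, averaged 19.02 CPM. Igf2, a fetal growth factor, read 3.76, 6.93, 2.94 and 3.95 CPM with V and 0.31, 1.03, 0.40 and 0.30 with M. Of the others 6 were lower, as Meg3 stood at 0.10 to 0.38 CPM against 0.43 to 0.82, and Grb10 overlapped at 147 to 221 and 151 to 199 CPM.

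TGF-beta genes split between the clones, with 4 of 17 higher with V and 9 lower. Ctgf, a target of TGF-beta and of YAP, stood at 399 to 921 CPM with V and 78.2 to 126 with M, and did not pass the F-test among the other clones (adjusted p = 0.167). The Id genes Id2, Id3 and Id4, direct targets of BMP signals, went the other way, Id2 and Id3 on both sides of mono-culture. Id3 read 11.6, 13.8, 15.3 and 26.7 CPM with V, 190, 207, 150 and 179 with M and 38.9 to 55.7 in mono-culture. Id2 read 1.17, 1.40, 1.96 and 4.43 CPM with V and 34.7, 27, 25.6 and 31.6 with M, around 10.4 to 16.1 CPM in mono-culture. Id4 was at 0.66 to 1.02 CPM with V, inside or below the mono-culture range of 0.88 to 1.93, and at 24.9 to 35.7 with M. Atoh8, another helix-loop-helix gene, was at 0.15 to 1.79 CPM with V and 31.7 to 48.0 with M. Among the other clones Id2 averaged 42.1 CPM with K and 3.94 with H (adjusted p = 6.71e-05), and Id3, Id4 and Atoh8 were likewise highest with K and lowest with H.

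Of 13 contractile genes 4 were higher and 4 lower, shares near those over all genes (28.3% and 29.7%), with a median of 0.06. Tagln, an actin-binding protein of myofibroblasts, read 412, 241, 119 and 154 CPM with V and 38.1, 84.8, 33.4 and 61.9 with M. V was above M in each library and spread over a wide range (log2 fold change 2.09, SE 0.46). Des and Myh11, of muscle and pericytes, were lower with V, by -2.09 (SE 0.19) and -2.20 (SE 0.52), at low levels of at most 6.19 and 2.13 CPM. Flna, an actin cross-linker, overlapped at 1284 to 1807 and 1018 to 1493 CPM.

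Of 23 matrix genes 7 were higher and 9 lower, again near the 28.3% and 29.7% of all genes. Col3a1, a fibrillar collagen, read 1601, 5258, 2566 and 4410 CPM with V and 7912, 8613, 6603 and 6767 with M. V replicate 1 was the lowest, and the fold of M over V was 2.16. Eln, tropoelastin, read 0.56, 2.21, 0.60 and 1.02 CPM with V and 12.4, 19.9, 7.85 and 9.25 with M, 11.1-fold apart. Tnc, a matrix protein of wounds and tumours, was higher with V, at 1248, 1448, 955 and 945 CPM against 365, 666, 358 and 354, and both clones were above mono-culture (189 to 251 CPM). Spp1 (osteopontin) stood at 1102 to 1681 CPM with V and 199 to 705 with M, and Thbs1, an activator of latent TGF-beta, at 1132 to 2138 and 614 to 844. Pcolce, which helps to trim procollagen, was lower with V by -1.07 (SE 0.16). Fn1 (fibronectin) overlapped, at 6706 to 8951 CPM with V and 4566 to 9565 with M. In the basement membrane list 2 of 13 were higher with V and 2 lower, both under the shares of all genes. The higher count was 1 when V replicate 2, V replicate 4, M replicate 1 or M replicate 4 was left out, and with the epithelial covariate.

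Among metalloproteinases and their inhibitors, 3 of 16 were higher with V and 7 lower. Mmp3 (stromelysin 1) read 0.25, 0.67, 0.05 and 0.90 CPM with V and 22.2, 36.5, 16 and 23.7 with M. V overlapped mono-culture, at 0.53 to 0.94 CPM, and the M libraries were 5.01 above it on the log2 scale. Mmp15, a membrane enzyme, was at 0.38 to 0.84 CPM with V and 4.53 to 5.97 with M. The inhibitors did not share a direction: Timp1 (118 to 271 against 51.4 to 59.4 CPM) and Timp3 (1656 to 3236 against 602 to 1398 CPM) were higher with V, and Timp2 (401 to 666 against 1199 to 1515 CPM) was lower. Timp2 with M overlapped the mono-culture range of 1349 to 1490 CPM, and Mmp3 and Timp2 were both highest with K and lowest with H among the other clones (adjusted p = 7.08e-06 and 8.63e-08).

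Wnt and Hedgehog genes were lower with V in 9 of 16 cases and higher in 2. Wnt4 read 0, 0.10, 0.05 and 0.06 CPM with V, at most 2 counts in a library, and 7.51, 3.16, 6.93 and 5.52 with M, on either side of 0.33 to 1.29 CPM in mono-culture. Notum, a secreted Wnt inhibitor that Wnt signals induce, stood at 0.46 to 1.97 CPM with V, overlapping mono-culture, and 5.16 to 12 with M. Hhip, an inhibitor induced by Hedgehog, was higher with V, at 0.97 to 2.84 CPM against 0 to 0.29. Sfrp2 was lower than in mono-culture with both clones and overlapped between them, V replicate 1 being far below the rest at 7.68 CPM.

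Genes of resting fibroblasts were the list furthest in the direction of M, with 10 of 15 lower with V, 0 higher and a median of -1.12. Hlf, a clock output factor, read 0.15, 0.43, 0.22 and 0 CPM with V, 5.09, 5.16, 2.18 and 2.24 with M and 8.97 to 14.4 in mono-culture. Dpt (dermatopontin), a marker of universal fibroblasts, stood at 3.54 to 10.6 CPM with V, 15.8 to 27.5 with M and 126 to 228 in mono-culture. Both clones were below mono-culture for these genes, V further than M. Lum, a proteoglycan of collagen fibrils, and Gsn, gelsolin, were lower with V by -1.83 (SE 0.51) and -0.73 (SE 0.17). The F-test among the other clones was passed by 14 of the 15, beside 56.0% of all genes.

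Genes of DNA replication and mitosis were higher with V in 19 of 22 cases and lower in 1 (0 without V replicate 3), by smaller amounts, with a median of 0.56. The higher count was 15 to 18 with single libraries left out, and 15 with the epithelial covariate. Rrm2, the inducible subunit of ribonucleotide reductase, read 208, 98.5, 112 and 123 CPM with V and 42.4, 46.9, 42.2 and 44.5 with M. The V libraries were above the mono-culture range of 51.7 to 59.6 CPM and the M libraries below it. Top2a, a topoisomerase of dividing cells, was 1.48-fold higher with V. Cell cycle inhibitors split, with 3 of 14 higher and 6 lower. Cdkn1a (p21), also an ATF4 and p53 target, stood at 211 to 280 CPM with V and 85.7 to 120 with M, whereas Cdkn2b (p15) stood at 82.4 to 225 and 227 to 370. Sesn1, a p53 target that senses leucine, was at 13.3 to 24.2 CPM with V and 58.5 to 78.4 with M. Its relative Sesn2, an ATF4 target, was higher with V by 0.86 (SE 0.20).

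Metabolic lists outside the amino acid genes had smaller medians. In glycolysis 7 of 18 were higher with V and 1 lower, or 3 lower without V replicate 4. Hk2, the inducible hexokinase, read 72.3, 72.0, 85.1 and 78.9 CPM with V and 11.3, 13.2, 26.1 and 18.1 with M, 4.48-fold apart, and Pfkp was 2.38-fold and the glucose carrier Slc2a1 1.95-fold higher. Pkm, pyruvate kinase, overlapped at 950 to 1503 and 1003 to 1110 CPM. Of 12 hypoxia genes 3 were higher and 2 lower (1 without V replicate 1), under the 28.3% and 29.7% of all genes. Among them Ndrg1 stood at 263 to 405 CPM with V, 74.9 to 112 with M and 244 to 280 in mono-culture. Vegfa, the endothelial growth factor and a target of both HIF and ATF4, stood at 221 to 344 and 111 to 157 CPM. Respiratory chain subunits had a median of 0.07 with 11 of 24 higher and 1 lower, or 7 and 3 without V replicate 4, and Cycs (cytochrome c) was 3.13-fold higher with V.

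Genes of sterol and fatty acid synthesis were lower with V in 9 of 21 cases (5 without V replicate 1) and higher in 1, and both clones stood below mono-culture (medians -0.93 and -0.56). Mvk, mevalonate kinase, read 13.4, 17.9, 13.7 and 17.7 CPM with V, 60.2, 55.6, 49.4 and 37.1 with M and 73.3 to 90.1 in mono-culture. Endoplasmic reticulum chaperones were higher with V in 12 of 17 cases and lower in 0, with Hspa5 (BiP) at 766 to 1044 CPM with V, 394 to 522 with M and 426 to 508 in mono-culture. NRF2 antioxidant genes were higher in 9 of 15 and lower in 3, and 2 standard targets went opposite ways, Hmox1 2.16-fold higher with V and Nqo1 2.07-fold higher with M. Lysosome and autophagy genes (8 of 20 higher, 3 lower, with Ctsl and Sqstm1 1.72-fold and 1.67-fold higher) had a median of 0.04, and ribosomal proteins (3 of 22 higher, 0 lower) one of 0.15. The ribosomal protein counts were under the 28.3% and 29.7% of all genes. Of these genes 5 were higher without M replicate 4, 1 was lower without V replicate 4, and 8 were higher with the epithelial covariate.

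Immediate early genes, which respond within minutes to serum and stress, were higher in 5 of 16 cases and lower in 5, close to the 28.3% and 29.7% of all genes. Fos read 18, 28.2, 132 and 129 CPM with V and 607, 153, 912 and 634 with M, and replicates 1 and 2 of V were well below the other V libraries. Mono-culture spread from 47.2 to 450 CPM and overlapped both. Fosl1, a slower member of the family, was higher with V, at 102 to 151 CPM against 16.8 to 45.4. Neither Fos nor Fosb passed the F-test among the other clones (adjusted p = 0.254 and 0.395), whereas Fosl1 did (adjusted p = 4.07e-06).

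The largest fitted differences of single genes, among genes with a mean of at least 2 CPM and no overlap, included several with few reads in one clone. Cdh1 held 1077 counts over the V libraries and 2 over the M libraries, a ratio of 453 after scaling for depth (95% exact interval 125 to 3742, for counting error only). It varied among the other clones, from 26.4 CPM with N to 0.66 with K, and moved within the V group with the keratins, both being higher in replicates 3 and 4. Rph3a, a vesicle protein of neurons, read 15.4, 2.60, 1.74 and 0.60 CPM with V and 1 count in all with M. The ratio of V over M was 334 (95% exact interval 59.7 to 13243). Gda, guanine deaminase, held 784 counts with M and 1 with V, and its M libraries read 16.1, 4.01, 12.9 and 17.5 CPM. Its ratio of M over V was 933 (95% exact interval 167 to 36895). Cdx2, an intestinal transcription factor, read 11.2, 3.83, 11.5 and 8.36 CPM with M, at most 2 counts with V and 0 in mono-culture. Kcnf1, a potassium channel subunit, and Ceacam1, an adhesion protein of epithelia, were highest in M replicate 3, at 15.5 and 10.7 CPM, the M library with the highest keratin levels, and lowest in replicate 2. Whether the fibroblasts or remaining tumour cells carried these transcripts was not tested.

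Aoc3, a vascular amine oxidase, read 1.27, 3.18, 1.42 and 2.63 CPM with V, 90.8, 84.1, 56.9 and 54.0 with M and 47.4 to 65.6 in mono-culture. The M libraries overlapped mono-culture and the V libraries were 33.5-fold lower than M. Avil, an actin regulator, read 135, 37.8, 48.4 and 26.1 CPM with V and 4.13 to 6.57 with M, and Car6, a secreted carbonic anhydrase, 91.3, 39.7, 39.7 and 22.5 CPM and 2.52 to 5.52. In both, V replicate 1 stood far above the other V libraries. Matn3, a cartilage matrix protein, Gpr141, an orphan receptor, and Tnnt2, cardiac troponin T, were higher by 4.06 (SE 0.40), 3.94 (SE 0.60) and 3.73 (SE 0.48). Ccl11 (eotaxin) was at 0 to 0.24 CPM with V and 2.17 to 6.34 with M. Of abundant genes, Hspa9, the mitochondrial HSP70, was higher with V by 1.52 (SE 0.15), and Ptn (pleiotrophin) and the transcription factor Nfix lower by -1.54 (SE 0.23) and -1.25 (SE 0.14).

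Over the 37 genes of the rules for the largest, the most abundant and the most opposed differences, 36 passed the F-test among the other clones. The exception was Tnc (adjusted p = 0.236). Of all genes 56.0% passed it, and of genes past the V and M threshold 5999 of 8297, so the choice of wide differences favours a high count. In 20 of the 37 all 5 of those clones had a mean between those of V and M, beside 25% of all genes, and the choice of genes with wide V and M differences favours this. Where V was higher, H was most often the highest of the 5, in 7 of the 10 genes with the largest differences, and where V was lower, H was most often the lowest, in 8 of 10. Aoc3 averaged 62.7 CPM with K and 5.65 with H (adjusted p = 2.64e-07). H19 was at 127 CPM on average with V and at most 19.02 in any other group. KPC1, which took no part in the F-test, averaged 544 CPM for Asns and 5.90 for Aoc3, nearer to V and H than to M in both.

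**Figure D5:**
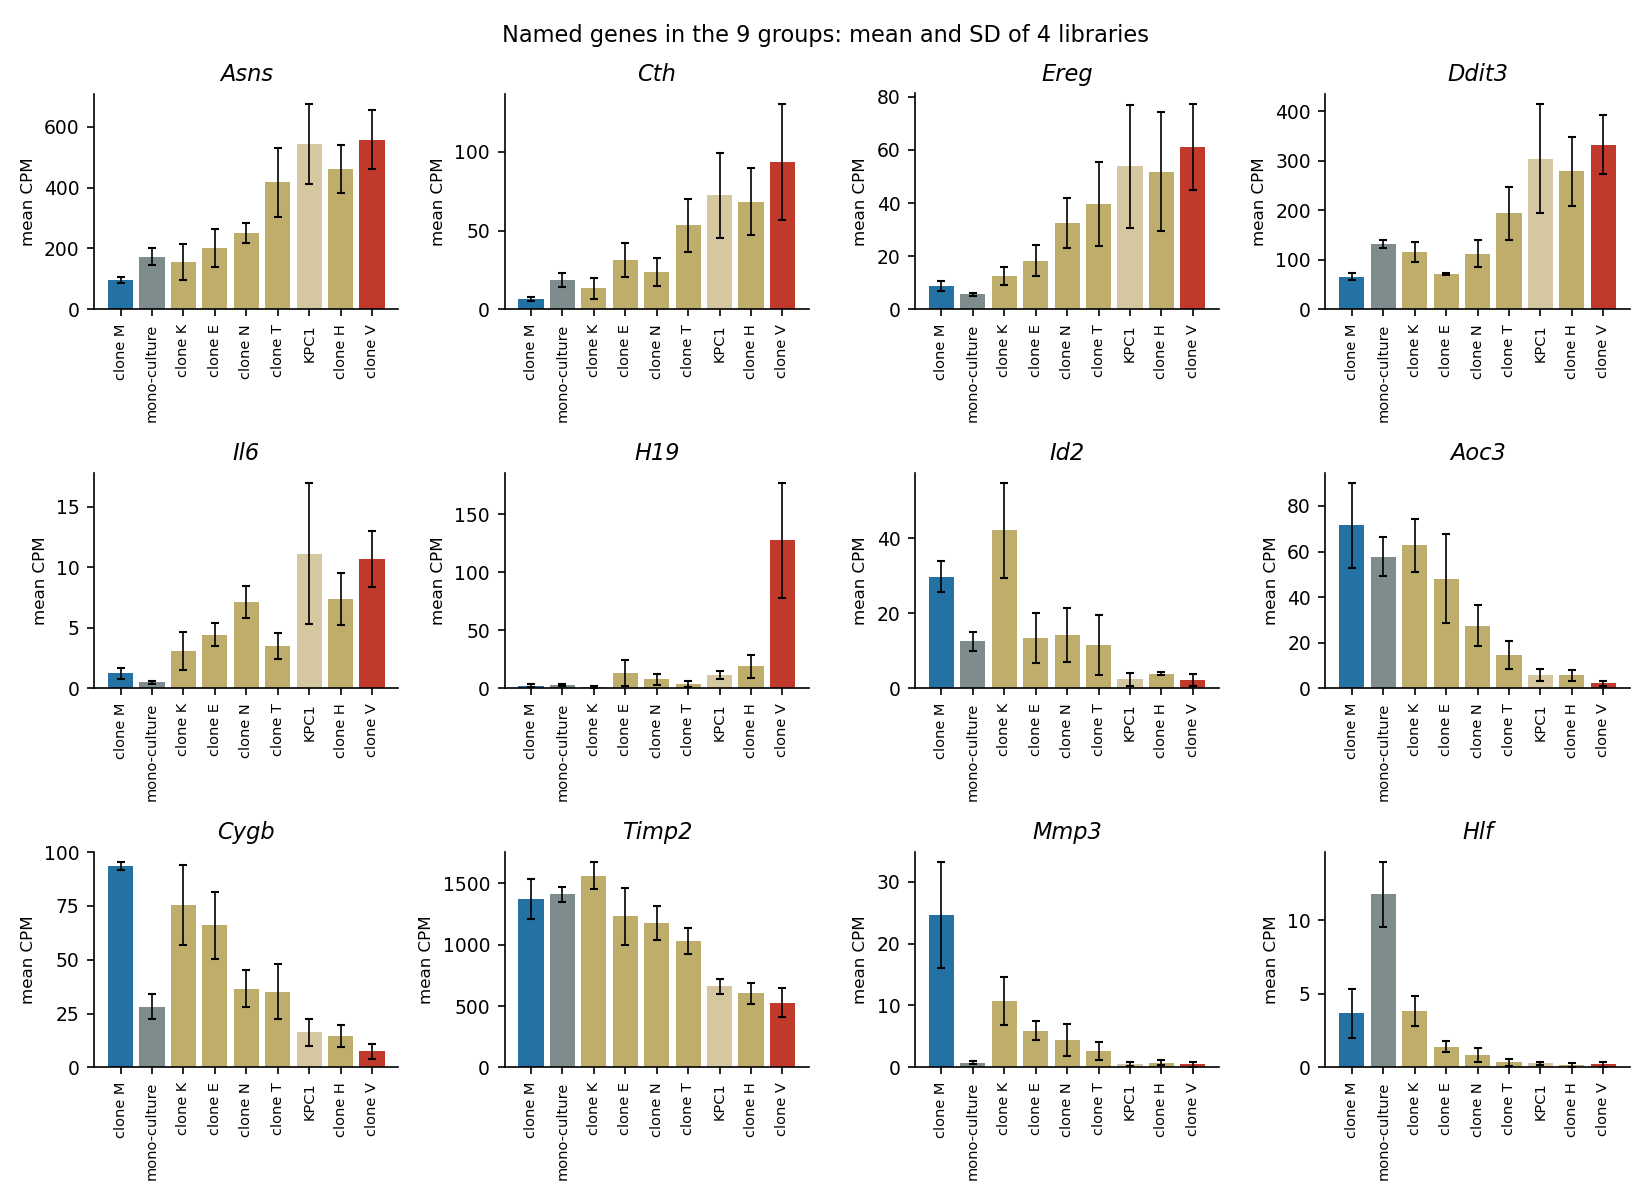
Mean CPM with SD of 4 libraries (bars start at 0) of 12 named genes in the 9 groups, with clone V in red, clone M in blue and mono-culture in grey. Asns averages 95.1 CPM with M and 558 with V, Aoc3 71.5 and 2.12, and H19 is above 20 CPM with V alone.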

How the data were processed

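RNA from sorted fibroblasts was made into strand-specific, poly(A)-selected libraries (200 ng, 14 PCR cycles) and sequenced as paired 76-base reads. The submitters' processing notes name STAR, featureCounts and edgeR with build mm10. Versions, annotation and the strand setting of the counting are not given in the sources used here, so overlapping and antisense genes cannot be told apart with certainty. The authors deposited unscaled gene counts, used here as they stand, and RPKM values, which the authors scaled to gene length and library size and which served only in alternatives with limma. Libraries were grouped by the clone in their titles.

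Counts of the 36 libraries were fitted together with edgeR 4.0.16 in R 4.3.3, after its default filter on low counts and TMM scaling (14439 of 39017 genes), and tested with the quasi-likelihood test with Benjamini-Hochberg adjustment at 0.05. CPM values are TMM-scaled, and log2 fold changes are those of the fit with their standard errors. A second fit of 28 libraries without V and M gave the F-test among E, H, K, N and T, and every adjusted p-value printed is from that edgeR test. Exact intervals, which cover counting error only, are given for Cdh1, Rph3a and Gda, each with at most 3 counts over the libraries of 1 clone.

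The pair, the gene lists and the tests were chosen with earlier results of these data known. Named genes were the 10 highest and 10 lowest log2 fold changes among genes with a mean of at least 2 CPM and no overlap, the 5 most abundant at least 2-fold apart in each direction, the 5 furthest on opposite sides of mono-culture in each direction, for each list its 3 largest differences and its most abundant gene, and all members of the 4 ISR and amino acid lists and of the marker lists. Gene positions are of GRCm38 (mm10), from GENCODE, and promoters from RefSeq (GRCm38.p6).

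Alternatives were RLE scaling, no scaling, no filter, a minimum of 10 counts, a threshold of 0.1, a replicate block, only the libraries compared, limma 3.58.1 on log2(RPKM + 1) and log2(RPKM + 0.1), DESeq2 1.42.0 and each library left out. The epithelial covariate and the list counts by library were added after the data had been seen. Some list members are counted but not reported by name here.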

Additional observations from a re-analysis of the deposited data

Results flagged for a closer look

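In each set of 4 libraries, the gap of the highest or lowest library to its nearest neighbour was divided by the range of the set, and sets above Dixon's 95% critical value are listed. Chance flags about 1 in 20 sets, 6.4 of the 128 examined, if values are normally distributed, and 14 were found. A set with a single non-zero library has a gap of 1 by construction. This holds for Cdh1 and Rph3a with M and for Gda with V, so the number found is not read against 6.4. Their causes were not tested.

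Of single genes with V, replicate 1 stood apart in 4: Rph3a at 15.4 CPM against 0.60 to 2.60 (gap 0.864 of the range), Mamdc2 at 12.4 against 3.83 to 5.01 (0.862), Kcnma1 at 9.26 against 2.27 to 3.43 (0.834) and Dhrs3 at 0.66 against 2.93 to 3.18 (0.902). Gda was at 0 in 3 V libraries and at 0.06 CPM, 1 count, in replicate 4 (gap 1). With M, Atoh8 was highest in replicate 1 at 48 CPM against 31.7 to 33.5 (0.891), and Tnc in replicate 2 at 666 CPM against 354 to 365 (0.962). Cdh1 and Rph3a were detected with M in replicate 2 alone, at 0.12 and 0.06 CPM (gap 1 for both).

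Of list means in log2 CPM, replicate 4 of M stood apart in 3: the ISR list at 4.94 against 5.10 to 5.12 (0.898), hypoxia at 4.50 against 4.18 to 4.24 (0.830) and sterol synthesis at 7.53 against 7.90 to 7.93 (0.917). The amino acid enzymes were highest in M replicate 2, at 5.91 against 5.69 to 5.73 (0.849). Glycolysis was highest in V replicate 4, at 7.63 against 6.73 to 6.86 (0.845).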

How the results depend on the processing

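The number of genes past the threshold between V and M, 8367, was 7194 to 9212 under the other settings and 7766 to 8293 with single libraries left out, of which 42.2 to 50.7% were higher with V (48.8% before). The F-test among the other clones, with 7999 genes, gave 6925 to 9148 and, with libraries left out, 7167 to 8132. The main fit did not treat the V and M libraries as pairs. Same-numbered V and M libraries deviated together with correlations of -0.11 to 0.40, and 2 of 4 V libraries correlated best with their own number. With 4 libraries per clone, these values cannot settle whether same-numbered libraries were made together. Over the 8 co-cultures, however, replicate 4 had the highest mean for hypoxia and ribosomal protein genes in 8 and the lowest for amino acid transporters in 8, so libraries of that number shared a shift. In the running numbers of the titles, the 8 co-cultures of a replicate number stand together and the mono-cultures come last. What that order reflects is not stated. With the number as a replicate block, the counts were 8892 and 9044, and glycolysis had 12 genes in the F-test in place of 7. The log2 fold changes of 37 named genes then moved by less than the spread. Every standard error and adjusted p-value printed is from a fit without this block.

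The median of lysosome and autophagy genes, 0.04, turned to -0.037 without scaling and to -0.035 on log2(RPKM + 1), and was 0.10 with the epithelial covariate. On log2(RPKM + 1), where differences of low genes shrink by construction, the medians were 0.66 for inflammatory, 0.18 for MHC class I, 0.21 for hypoxia, 0.055 for growth factor and -0.043 for imprinted genes. Without scaling, the median of p53 targets and cell cycle inhibitors was -0.40. With the epithelial covariate the medians of the amino acid enzymes and synthetases were 1.497 and 1.15. Passing the F-test were 8 sterol genes without scaling, 9 at a threshold of 0.1, 9 with only the libraries tested and 8 with DESeq2 (5 before), 8 ribosomal protein genes without scaling (15 before), and 9 and 8 interferon genes with limma on log2(RPKM + 1) and log2(RPKM + 0.1) (17 before). The causes were not tested.

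With single libraries left out, medians ran from 0.014 to 0.10 for lysosome, -0.74 to -0.35 for metalloproteinase (the latter without V replicate 1), 0.11 to 0.70 for hypoxia (0.11 without V replicate 4), -1.004 to -0.64 for imprinted and -0.37 to -0.23 for p53 genes. Those of contractile, basement membrane and immediate early genes lay on both sides of 0. The log2 fold change of Rph3a was 6.22 without V replicate 1 and 9.54 without M replicate 2, that of Gda -10.83 without V replicate 4 and that of Cdh1 11.09 without M replicate 2. The other 292 values of named genes with a library left out moved by less than the spread. Under the other settings 26 such values moved by more, 23 on log2(RPKM + 1) and 3 with the epithelial covariate, and 159 did not. The minimum of 10 counts gave no F-test counts for the lists. Genes with few counts in 1 clone are limited by depth.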
